A study of Mus musculus with 2 samples.

Results

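Fibroblasts are the collagen-secreting cells of the connective tissue between and around the pancreatic lobules. Those described here expressed fibroblast genes but lay outside a pair of more specialised sets, the adventitial cells with Pi16, Dpp4 and Sema3c and the matrix-remodelling cells with Tnc, Cthrc1, Postn and Acta2. A cell barcode was a member when it held at least 1000 unique molecular identifiers (UMIs, each standing for 1 captured transcript), at most 25% mitochondrial UMIs, at least 1% of its UMIs from Col1a1, Col1a2, Col3a1 and Dcn together, under 3 UMIs of the adventitial genes and under 3 UMIs of the remodelling genes. At most 1 UMI of the leukocyte gene Ptprc, at most 3 UMIs of the mesothelial genes Msln, Upk3b, Lrrn4, Upk1b and Gpm6a, and under 0.1% of UMIs from Csf3r, Cxcr2 and Mmp9 of neutrophils were allowed. This took 1413 of 22352 barcodes, 557 in the CP+EVs library and 856 in the CP library.

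Each library holds single cells of mouse pancreas, whose transcripts were tagged on the BD Rhapsody system. Mice of the CP+EVs group were given Cae and extracellular vesicles (EVs), and mice of the CP group Cae without vesicles, so Cae was shared by the groups and no untreated library was analysed here. The condition label of both reads acute pancreatitis, while the title has chronic pancreatitis, and names exercise as what induced the vesicles. The sources used here give no strain, age, dose or number of animals. Each group had 1 library, so no difference could be tested or checked in replicates. Every interval below is a 95% interval for counting error only, and each difference is one between these libraries.

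Resting fibroblasts lay down fibrillar collagen, and those that lie along the epithelium and the vessels also secrete basement membrane proteins such as collagen IV, laminins and perlecan. In an inflamed organ fibroblasts take up cytokine signals and release chemokines, complement and acute-phase proteins, and some turn into matrix-remodelling or contractile cells. Fibroblasts lacking both the adventitial and the remodelling genes are usually the ones spread through the parenchyma, where Col15a1, Penk, Smoc2 and Cxcl14 are often seen.

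The members made up 8.13% of the 6849 kept CP+EVs barcodes (interval 7.50 to 8.81) and 10.16% of the 8426 kept CP barcodes (9.52 to 10.8), where kept means the same minimum of UMIs and mitochondrial limit. Among barcodes that passed as fibroblasts they were 37.3% of 1493 in CP+EVs (34.8 to 39.8) and 57.1% of 1499 in CP (54.6 to 59.6). These shares move with depth. A member held a median of 3119 UMIs in CP+EVs and 1542.5 UMIs in CP, against 6973 UMIs in CP+EVs and 9884 UMIs in CP in the adventitial set, the fibroblasts past the adventitial limit and not the remodelling one. Barcodes with no UMI of Pi16, Dpp4 or Sema3c had a median of 2501.5 UMIs in CP+EVs and 1413 UMIs in CP, and those just outside the limit, with 3, had 4567 UMIs in CP+EVs and 6436 UMIs in CP. After every barcode was thinned to 1000 UMIs and the rule applied again, 1371 of 1678 CP+EVs fibroblasts (81.7%) and 1594 of 1714 CP fibroblasts (93.0%) were members. With at least 2000 UMIs in place of 1000, the shares of kept barcodes were 6.77% in CP+EVs and 5.58% in CP. The order of the libraries was also turned by the rule applied after thinning and by asking for a Pdgfra UMI. Leaving out the subgroups led by acinar or immunoglobulin genes turned it as well. Limits in UMIs thus took shallow fibroblasts of every kind along with those that lacked the genes.

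**Figure D1:**
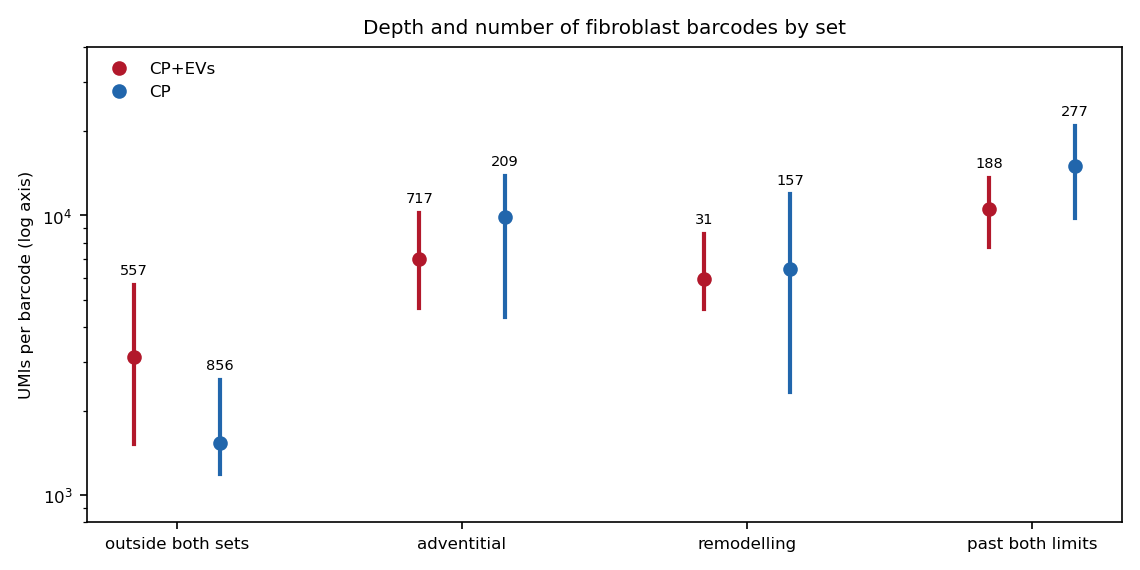
UMIs per barcode on a log axis (median as a point, bar from the lower to the upper quartile) for the 4 fibroblast sets of each library, with the number of barcodes above each bar, CP+EVs left of CP. The cells outside both sets were the shallowest in both libraries, with medians of 3119 UMIs in CP+EVs and 1542.5 UMIs in CP.

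The markers of the label were present but not in every cell. Levels are UMIs summed over the members of a library and scaled to 1000000 UMIs (CPM). Pdgfra, the receptor of platelet-derived growth factor A that most fibroblasts carry, stood at 1318 CPM (95% interval 1271 to 1367) in CP+EVs members and 925 CPM (95% interval 887 to 964) in CP members, a log2 ratio of 0.51. These levels were 342% of the level in the whole CP+EVs library and 244% of that in the whole CP library. At least 1 Pdgfra UMI was found in 448 of 557 CP+EVs members and 488 of 856 CP members, which were shallower. Lumican, Lum, a collagen-binding proteoglycan, stood at 597 CPM in CP+EVs and 773 CPM in CP (log2 ratio -0.37). The other markers, Dcn, Col1a1 and Col3a1, belong to the rule and check nothing. Markers of neighbouring stromal types were low in CPM. The 6 pericyte markers summed to 25.7 CPM in CP+EVs, 161% of the library level, and 66.2 CPM in CP, 294% of it, with Higd1b at 0 in both. The 5 smooth muscle markers, of which the rule limits Acta2, summed to 4.52 CPM in CP+EVs (75% of the library level) and 24.4 CPM in CP (104%). The 5 Schwann cell markers summed to 1.81 CPM in CP+EVs (83.9%) and 2.44 CPM in CP (127%), with Sox10 at 0 in both. In lymphocytes, which do not make fibroblast genes, Dcn stood at 491 CPM in CP+EVs and 276 CPM in CP. The lymphocytes were chosen with under 1% of the 4 fibroblast genes, Dcn among them. Their Dcn level is thus limited by that choice and does not set the level that RNA free in the suspension can give. Transcripts of the 4 collagen and decorin genes took 1.12% of all UMIs of the CP+EVs library and 2.42% of the CP library, so in both the 1% limit lay below the level of the library itself.

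RNA of other cells was also present. The 5 acinar enzyme markers summed to 16283 CPM in CP+EVs members, 28.7% of the library level, and 146 CPM in CP members, 87.6% of it. Plasma cell markers, mostly Igkc, summed to 4522 CPM in CP+EVs and 8582 CPM in CP, neutrophil markers to 23.9 CPM in CP+EVs and 1414 CPM in CP, and macrophage markers to 139 CPM in CP+EVs and 541 CPM in CP. Mzb1 of plasma cells was at 0 in both, and Cxcr2 of neutrophils at 0 in CP+EVs. Of the neutrophil markers the rule limits Csf3r and Cxcr2, so their sum is partly set by it. The libraries shared 118 barcode sequences. Of the members, 2 in CP+EVs and 5 in CP carried such a sequence, and 0 were members in both.

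The members fell into 4 subgroups in each library when they were clustered apart by library on counts thinned to 1000 UMIs. Because the clusters were built on these genes, their levels are a description. In each library 1 subgroup was led by acinar or immunoglobulin genes, the only genes of other cells that this label counts. Subgroup 3 of CP+EVs (114 cells, 20.5% of members, median 1253 UMIs) was led by acinar genes such as Zg16, Ctrb1 and Cpa1, with acinar markers at 87977 CPM and Pdgfra at 549.7 CPM. Subgroup 1 of CP (353 cells, 41.2%, median 1261 UMIs) was led by immunoglobulin and acinar genes, with Jchain, the joining chain of secreted antibodies, at 1346 CPM, neutrophil markers at 3460.3 CPM, macrophage markers at 1522 CPM and Pdgfra at 499 CPM. For these cells the data go against the label in part, and they are called by their leading genes only. Without them 443 CP+EVs and 503 CP members were left, and a gene whose log2 ratio then crossed 1.5-fold, or moved by more than that, is given with both values. Acinar RNA was still present in the cells left. The acinar markers stood at 8116 CPM in CP+EVs subgroup 1, 8077 CPM in subgroup 2 and 7999 CPM in subgroup 4.

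A subgroup with hyaluronan and acute cytokine genes was found in both libraries. It held 78 CP+EVs cells (14.0% of members, interval 11.2 to 17.2; subgroup 4) and 273 CP cells (31.9%, 28.8 to 35.1; subgroup 2). Has1, a synthase of hyaluronan, stood at 2879 CPM in CP+EVs subgroup 4 and 1599.7 CPM in CP subgroup 2. Tnfaip6, whose protein binds and cross-links hyaluronan, stood at 4830.1 CPM in the CP+EVs subgroup and 3061 CPM in the CP subgroup. The cytokine Il6 stood at 1131 CPM in CP+EVs subgroup 4 and 1311 CPM in CP subgroup 2. In the other subgroups Has1 lay between 254 and 308 CPM in CP+EVs and between 144 and 450.5 CPM in CP. Of the 50 leading genes of each, 27 were shared (54% of either list), among them Ptx3, Ptgs2, Ugdh, which makes the sugar precursor of hyaluronan, Adamts4 and the nuclear receptors Nr4a1, Nr4a2 and Nr4a3. Immediate-early genes, which handling of the tissue can raise, were high in it, as with Egr1 at 11606 CPM in CP+EVs subgroup 4 and 6010.3 CPM in CP subgroup 2. Egr1 also stood at 10941 CPM in CP+EVs subgroup 1, where Has1 was low. Of 23 measured immediate-early genes, 14 were higher past 1.5-fold than in the other members and 0 lower in CP+EVs subgroup 4. In CP+EVs subgroup 1 it was 4 higher and 1 lower, and in CP subgroup 2 it was 19 higher and 0 lower. The remaining subgroups of both libraries had 0 higher and between 2 and 19 lower. The part of handling in this subgroup was not tested. At a Leiden resolution of 0.3 the CP+EVs subgroup with most Has1 and Tnfaip6 held 214 cells (38.4%) and the CP one 278 (32.5%), and at 0.8 the CP+EVs one held 80 cells (14.4%) and the CP one 275 (32.1%), so the CP+EVs share depends on the resolution.

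Promoters are shown for 3 of the shared leading genes, all of which were high together in both libraries. Each line is the 250 bases before the start of the gene in RefSeq on GRCm38.p6, 5′ to 3′ on the strand of the gene. Capitals mark matches on either strand to the AP-1 motif TGANTCA, the cyclic AMP response element TGACGTCA or the NF-kB motif, GGGA followed by any 4 bases and CC.
Has1, chr17:17855189-17855438, minus strand: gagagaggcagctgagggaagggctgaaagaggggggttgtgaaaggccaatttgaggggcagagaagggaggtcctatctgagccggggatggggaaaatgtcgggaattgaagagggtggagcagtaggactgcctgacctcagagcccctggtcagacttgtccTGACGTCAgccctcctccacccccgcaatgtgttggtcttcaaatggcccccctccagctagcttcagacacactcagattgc
Tnfaip6, chr2:52037863-52038112, plus strand: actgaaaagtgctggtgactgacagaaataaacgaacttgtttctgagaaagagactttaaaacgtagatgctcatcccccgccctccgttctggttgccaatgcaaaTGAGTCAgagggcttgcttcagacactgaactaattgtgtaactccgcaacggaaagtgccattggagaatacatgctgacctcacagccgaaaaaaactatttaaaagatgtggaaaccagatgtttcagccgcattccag
Il6, chr5:30012864-30013113, plus strand: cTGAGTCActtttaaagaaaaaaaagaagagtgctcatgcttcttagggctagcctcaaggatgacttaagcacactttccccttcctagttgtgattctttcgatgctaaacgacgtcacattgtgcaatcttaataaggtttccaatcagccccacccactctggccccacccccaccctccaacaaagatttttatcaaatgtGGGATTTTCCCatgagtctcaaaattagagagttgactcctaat
The Has1 window held the cyclic AMP response element, starting 83 bases before the gene. The Tnfaip6 window held an AP-1 match 142 bases before it, and the Il6 window an AP-1 match at 249 bases and a pair of overlapping NF-kB matches on opposite strands at 44 and 43 bases. Of 32851 RefSeq promoter windows of this length, 6.75% held the AP-1 motif, 1.55% the cyclic AMP response element and 17.6% the NF-kB motif. Among the 21 shared leading genes with a promoter in the table, 2 held the AP-1 motif, 3 the cyclic AMP response element and 4 the NF-kB motif. The 2 with the AP-1 motif were Tnfaip6 and Il6, both shown above. Others, such as Ptx3, Ptgs2, Ugdh, Nr4a1, Nr4a2 and Nr4a3, held none of these motifs, so the windows shown do not stand for the whole list.

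The remaining subgroups had fewer leading genes in common. CP+EVs subgroup 1 (188 cells, 33.8%) was led by Kcnn3, Thbs4, Cxcl14, Mgp, Smoc2 and Cilp. Smoc2, a calcium-binding basement membrane protein, stood there at 1807 CPM and between 244 and 444 CPM in the other CP+EVs subgroups. Mgp, matrix Gla protein, an inhibitor of calcification, stood at 6621 CPM against 798 to 1503 CPM. Col15a1 stood at 2549 CPM in subgroup 1. CP+EVs subgroup 2 (177 cells, 31.8%) was led by Cxcl13, Apln, Cxcl9, Trf, Sult1e1, Enpp2 and Gbp2, and held the chemokine Cxcl9 at 273 CPM and the guanylate-binding protein Gbp2 at 508 CPM.

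CP subgroup 3 (131 cells, 15.3%) was led by Mmp3, Cxcl14, Fmo2, Apod, Serpina3n and Vegfd, and had the highest Col3a1 of the 4 CP subgroups at 30873 CPM. It shared 8 of 50 leading genes (16% of either list) with CP+EVs subgroup 1, among them Cxcl14, Mylk, Apod and Mfap4. The pericyte markers summed to 128 CPM in CP subgroup 3 and 72.6 CPM in CP subgroup 2, above the 22.5 CPM of the whole CP library. They summed to 7.18 CPM in CP subgroup 1 and 11.7 CPM in CP subgroup 4. CP subgroup 4 (99 cells, 11.6%) was led by Enpp2, Cxcl5, Serpinb2, Myrf and Gatm, and held Saa3 at 13551 CPM and Cxcl13 at 1458 CPM. It shared 7 of 50 leading genes (14%) with CP+EVs subgroup 2, among them Cxcl13, Enpp2 and Gbp2. Both subgroups were higher in the interferon gamma list described below, each against the other members of its library. CP subgroup 4 had 18 genes higher past 1.5-fold and 2 lower, of 21. CP+EVs subgroup 2 had 11 higher and 1 lower, of 19. The 6 mesothelial markers, 5 of which the rule limits, summed to 382 CPM in CP subgroup 4, above the 169 CPM of the whole CP library. In the other CP subgroups they summed to between 10.6 and 102 CPM. The 5 smooth muscle markers summed to 125 CPM in CP subgroup 4 and 23.5 CPM in the whole CP library. Of 16 measured genes of the parenchymal fibroblast list described below, 14 were lower past 1.5-fold than in the other CP members and 1 higher. Lum stood at 113 CPM and Smoc2 at 3.898 CPM in CP subgroup 4, the lowest of the CP subgroups, while Pdgfra stood at 1037 CPM. These cells stayed in when the cells led by acinar or immunoglobulin genes were left out.

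**Figure D2:**
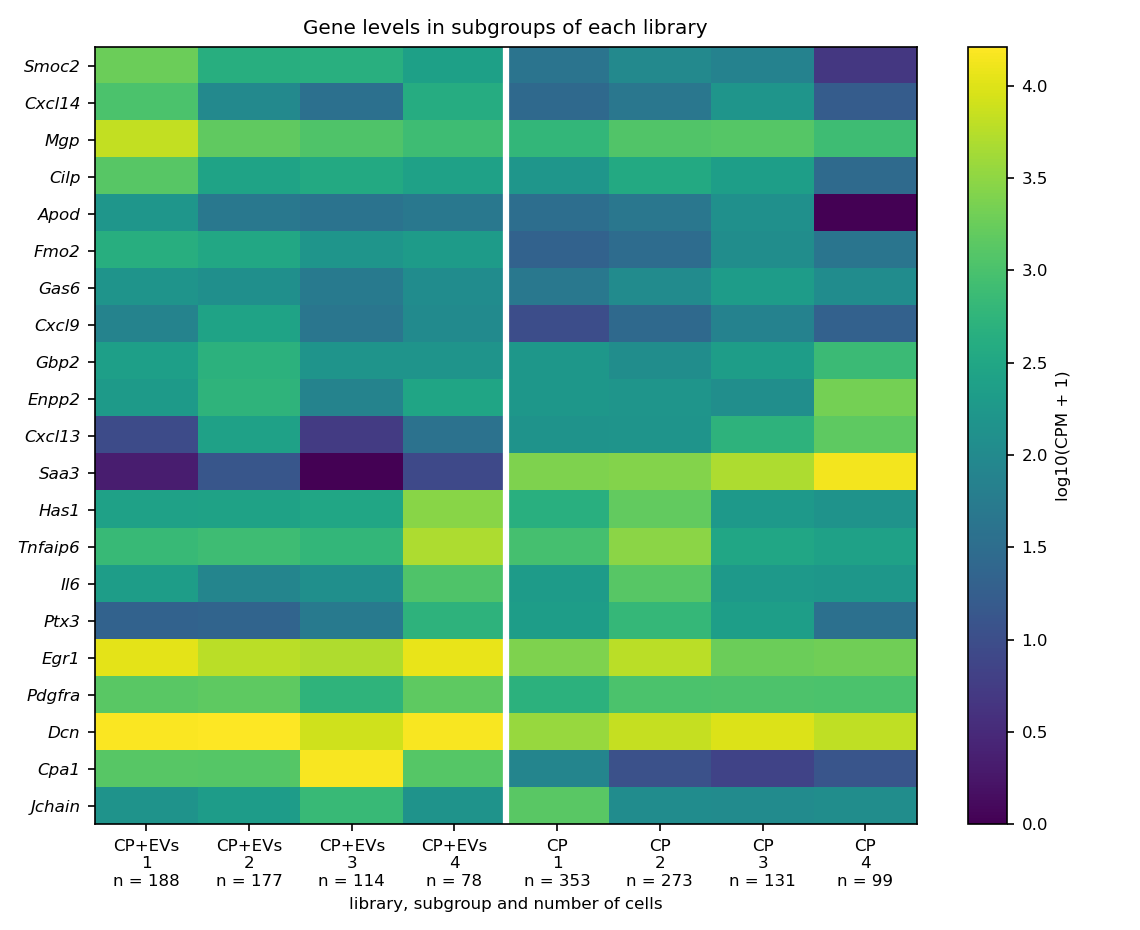
Levels of 21 genes, as log10 of CPM plus 1 by colour, in the 4 subgroups of members of CP+EVs (left) and CP (right). Has1, Tnfaip6, Il6 and Ptx3 were highest in CP+EVs subgroup 4 and CP subgroup 2, Saa3 was near 0 in the CP+EVs subgroups and high in all CP ones, and Cpa1 and Jchain mark CP+EVs subgroup 3 and CP subgroup 1. Acinar markers were not confined to CP+EVs subgroup 3 and were present in every CP+EVs subgroup.

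The libraries were compared on these summed levels, as the log2 ratio of CP+EVs over CP. A gene was measured when it reached 20 CPM in either library and 20 UMIs over both, which 7014 genes did. Of these, 959 (13.7%) stood 1.5-fold or more higher in CP+EVs and 1290 (18.4%) that far lower, 32.1% in either direction. The median log2 ratio was -0.04. A list count below is read against these shares. Without the cells led by acinar or immunoglobulin genes 1098 genes (16.0%) were higher and 1090 (15.8%) lower, so that the share of calls that were higher moved from 42.6% to 50.2%.

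Members of the CP+EVs library carried more basement membrane RNA. The basement membrane list had 12 genes higher past 1.5-fold and 2 lower, of 16 measured (median log2 ratio 1.34). Smoc2 (chr17:14279506-14404790 on mm10) stood at 934 CPM (95% interval 894 to 975) in CP+EVs members and 66.97 CPM (95% interval 57.1 to 78.00) in CP members, a log2 ratio of 3.8. Lama2, the laminin chain of mesenchymal basement membranes, stood at 559 CPM (95% interval 528 to 591) in CP+EVs members and 92.9 CPM (95% interval 81.3 to 106) in CP members, a log2 ratio of 2.59. The perlecan gene Hspg2 stood at 231 CPM in CP+EVs and 66.6 CPM in CP (log2 ratio 1.79). The collagen IV chain Col4a1 had 1942 CPM in CP+EVs and 567 CPM in CP (log2 ratio 1.78). For the laminin chain Lamc1 the levels were 1259 CPM in CP+EVs and 403 CPM in CP (log2 ratio 1.64), and for nidogen, Nid1, 3106 CPM in CP+EVs and 1305 CPM in CP (log2 ratio 1.25). Sparc, a collagen-binding glycoprotein of the same list, was on the other side with 7254 CPM in CP+EVs and 12012 CPM in CP (log2 ratio -0.73). The higher levels held at like depth. Among members of 2000 to 4999 UMIs, Smoc2 stood at 959.7 CPM in CP+EVs and 88.9 CPM in CP, and Col4a1 at 1933 CPM in CP+EVs and 539 CPM in CP. Adventitial fibroblasts of the same libraries showed 11 higher and 1 lower of 16 (median 0.81) for this list, so it was higher there as well.

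The fibrillar collagen list had 1 gene higher past 1.5-fold and 3 lower, of 6 measured (median log2 ratio -0.62). The 3 lower genes, Col1a1, Col1a2 and Col3a1, all belong to the selection rule, so their levels are partly set by it and nothing is read from them. Col3a1, the collagen III chain, stood at 7845 CPM in CP+EVs and 21967 CPM in CP (log2 ratio -1.49). Col1a1, a chain of collagen I, stood at 5172 CPM in CP+EVs and 12294 CPM in CP (log2 ratio -1.25). Decorin, Dcn, a proteoglycan that binds collagen fibrils and the 4th gene of that rule, was higher at 14742 CPM in CP+EVs and 6812 CPM in CP (log2 ratio 1.11). Among the chains outside the rule, Col5a3 was higher at 490.4 CPM in CP+EVs and 112 CPM in CP (log2 ratio 2.13). Col5a2 stood at 964 CPM in CP+EVs and 1318 CPM in CP (log2 ratio -0.45) and Col5a1 at 693 CPM in CP+EVs and 720.0 CPM in CP (log2 ratio -0.05), both within 1.5-fold. Of the collagen VI chains, which form beaded filaments around cells, Col6a1, Col6a2 and Col6a3 were higher and Col6a5, outside the list, was lower at 65.5 CPM in CP+EVs and 124 CPM in CP (log2 ratio -0.92). Col6a1 stood at 2717 CPM in CP+EVs and 1348 CPM in CP (log2 ratio 1.01) and Col6a3 at 678 CPM in CP+EVs and 372 CPM in CP (log2 ratio 0.86). The beaded and FACIT collagen list had 4 genes higher past 1.5-fold and 1 lower, of 7 measured (median log2 ratio 0.86). With the rule applied after thinning, which takes in most fibroblasts, Col6a1 (log2 ratio 0.56), Col6a2 (0.44) and Col6a3 (0.37) were no longer past 1.5-fold.

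Collagen processing and crosslinking genes had 1 gene higher past 1.5-fold and 3 lower, of 15 measured (median log2 ratio -0.02). The collagen chaperone Serpinh1 was lower at 1087 CPM in CP+EVs and 2470.5 CPM in CP (log2 ratio -1.18). So was the lysyl hydroxylase Plod2 at 194 CPM in CP+EVs and 319.8 CPM in CP (log2 ratio -0.72). The procollagen enhancer Pcolce2 was higher at 213 CPM in CP+EVs and 102 CPM in CP (log2 ratio 1.05). Small proteoglycans had 7 genes higher past 1.5-fold and 3 lower, of 16 measured (median log2 ratio 0.51). Prelp, which anchors basement membrane to collagen, was higher at 759.6 CPM in CP+EVs and 136 CPM in CP (log2 ratio 2.48). Prg4, the lubricant lubricin, was lower at 7.68 CPM in CP+EVs and 81.2 CPM in CP (log2 ratio -3.36). Has1 itself was close to level over all members at 729.8 CPM in CP+EVs and 810.1 CPM in CP (log2 ratio -0.15). The elastic fibre list had 5 genes higher past 1.5-fold and 2 lower, of 15 measured (median log2 ratio 0.08). Ltbp4, a binding protein of latent TGF-beta, was higher at 438 CPM in CP+EVs and 60.9 CPM in CP (log2 ratio 2.84).

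Metalloproteinase genes had 3 genes higher past 1.5-fold and 5 lower, of 13 measured (median log2 ratio -0.47). Stromelysin Mmp3 was lower at 90.8 CPM in CP+EVs and 292 CPM in CP (log2 ratio -1.68). The aggrecanase Adamts5 was higher at 900.5 CPM in CP+EVs and 312 CPM in CP (log2 ratio 1.53). Of the inhibitors, Timp1 was lower at 46.1 CPM (95% interval 37.6 to 55.9) in CP+EVs members and 604 CPM (95% interval 574 to 636) in CP members, a log2 ratio of -3.71. Timp2 stood at 3353 CPM in CP+EVs and 1187 CPM in CP (log2 ratio 1.5), and Timp3 at 97.5 CPM in CP+EVs and 25.2 CPM in CP (log2 ratio 1.95). The inhibitor list had 3 genes higher past 1.5-fold and 1 lower, of 4 measured (median log2 ratio 1.35). With a filter of 100 CPM and 100 UMIs its median was -1.1, below level, but only 2 genes were left, Timp1 and Timp2. These lay on opposite sides of level.

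The parenchymal fibroblast list, genes that mark Pdgfra-positive cells within organs, had 11 genes higher past 1.5-fold and 3 lower, of 16 measured (median log2 ratio 1.63). Inmt, a methyltransferase of small amines, stood at 409 CPM (95% interval 382 to 436) in CP+EVs members and 26.4 CPM (95% interval 20.4 to 33.6) in CP members, a log2 ratio of 3.94. Lipoprotein lipase, Lpl, stood at 2962 CPM in CP+EVs and 565 CPM in CP (log2 ratio 2.39). The matricellular protein gene Sparcl1 had 2456 CPM in CP+EVs and 444 CPM in CP (log2 ratio 2.47). Both lay far apart between the libraries. Penk, which encodes the precursor of enkephalins, stood at 1797 CPM in CP+EVs and 491 CPM in CP (log2 ratio 1.87). Ccl11, the eotaxin that attracts eosinophils, stood at 609 CPM in CP+EVs and 124 CPM in CP (log2 ratio 2.3). Cxcl12, the stromal chemokine that retains leukocytes and progenitors, was the member furthest below level at 329 CPM in CP+EVs and 1311 CPM in CP (log2 ratio -2.0). In the adventitial set this list had 9 higher and 3 lower of 16 (median 0.79). Within each library, the list median of the members over the adventitial set was a log2 ratio of 0.91 in CP+EVs and -0.13 in CP. Over the remodelling set it was 0.02 in CP+EVs and -0.43 in CP. The list as a whole was thus not higher in CP members than in either neighbouring set.

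The adventitial programme list, whose defining genes the rule keeps low, had 6 genes higher past 1.5-fold and 3 lower, of 17 measured (median log2 ratio 0.11). Clec3b, tetranectin, was higher at 350.0 CPM in CP+EVs and 172 CPM in CP (log2 ratio 1.02). The alarmin Il33 was lower at 122 CPM in CP+EVs and 477 CPM in CP (log2 ratio -1.96). The remodelling programme list, which shares 4 genes with the rule, had 1 gene higher past 1.5-fold and 8 lower, of 12 measured (median log2 ratio -1.0). Among its members Sfrp4, an inhibitor of Wnt signals, stood at 23.9 CPM in CP+EVs and 83.2 CPM in CP (log2 ratio -1.79), and the metalloproteinase Adam12 at 30.3 CPM in CP+EVs and 101 CPM in CP (log2 ratio -1.73). Tgfbi, a TGF-beta-induced matrix protein, stood at 37.9 CPM in CP+EVs and 235 CPM in CP (log2 ratio -2.62), and its log2 ratio was -1.36 without the cells led by acinar or immunoglobulin genes. Osteopontin, Spp1, stood at 13.5 CPM in CP+EVs and 77.1 CPM in CP (log2 ratio -2.49) and at a log2 ratio of -1.48 without those cells. Their levels in CP members were 26.02% (Tgfbi) and 62.3% (Spp1) of the library level.

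Growth factor receptors had 6 genes higher past 1.5-fold and 0 lower, of 8 measured (median log2 ratio 1.06). Egfr, the epidermal growth factor receptor, stood at 549.6 CPM in CP+EVs and 253 CPM in CP (log2 ratio 1.12). The neurotrophin receptor Ntrk2 had 187 CPM in CP+EVs and 75.5 CPM in CP (log2 ratio 1.3), and Pdgfrb had 77.7 CPM in CP+EVs and 38.96 CPM in CP (log2 ratio 0.99). Growth factors had 7 genes higher past 1.5-fold and 6 lower, of 17 measured (median log2 ratio 0.30). Fgf10, which signals from mesenchyme to epithelium, was higher at 79.03 CPM in CP+EVs and 19.1 CPM in CP (log2 ratio 2.04). Vegfd, a lymphatic growth factor, was lower at 169.8 CPM in CP+EVs and 433 CPM in CP (log2 ratio -1.35). The insulin-like growth factor axis had 5 genes higher past 1.5-fold and 2 lower, of 10 measured (median log2 ratio 0.52). Igf1 itself was lower at 778 CPM (95% interval 742 to 816) in CP+EVs members and 2280.1 CPM (95% interval 2221 to 2341) in CP members, a log2 ratio of -1.55. Igf1r, its receptor, was higher at 116 CPM in CP+EVs and 54.8 CPM in CP (log2 ratio 1.07). So was Pappa, a protease that frees Igf1 from its binding proteins, at 68.6 CPM in CP+EVs and 17.05 CPM in CP (log2 ratio 2.0). Igfbp5, a binding protein, stood at 182 CPM in CP+EVs and 134 CPM in CP (log2 ratio 0.44) in members, whereas its log2 ratio in adventitial fibroblasts was 3.26 (1463 CPM in CP+EVs and 152 CPM in CP). Its level in CP+EVs members was 24.02% of the library level.

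TGF-beta and activin genes had 3 genes higher past 1.5-fold and 5 lower, of 14 measured (median log2 ratio -0.31). Ccn2, connective tissue growth factor, was higher at 210.0 CPM (95% interval 191 to 230.0) in CP+EVs members and 19.9 CPM (95% interval 14.7 to 26.3) in CP members, a log2 ratio of 3.39. Smad7, the inhibitory Smad of the pathway, was lower at 65.5 CPM in CP+EVs and 155 CPM in CP (log2 ratio -1.24). The receptor Tgfbr2 stayed within 1.5-fold at 607 CPM in CP+EVs and 618 CPM in CP (log2 ratio -0.03), as did Tgfbr3 at 609.6 CPM in CP+EVs and 517 CPM in CP (log2 ratio 0.24). BMP ligands and antagonists had 2 genes higher past 1.5-fold and 1 lower, of 9 measured (median log2 ratio 0.18). Bmp4, a ligand, stood at 85.3 CPM (95% interval 73.6 to 98.4) in CP+EVs members and 3.65 CPM (95% interval 1.67 to 6.93) in CP members, a log2 ratio of 4.47. Gdf10, another ligand of the family, was higher at 673 CPM in CP+EVs and 233 CPM in CP (log2 ratio 1.53). Wnt ligands and modulators had 2 genes higher past 1.5-fold and 3 lower, of 9 measured (median log2 ratio -0.20). Sfrp2, a secreted Wnt modulator, was lower at 2.26 CPM in CP+EVs and 36.9 CPM in CP (log2 ratio -3.9), and the ligand Wnt4 at 9.03 CPM in CP+EVs and 41.8 CPM in CP (log2 ratio -2.18).

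Fibroblast transcription factor genes had 9 genes higher past 1.5-fold and 1 lower, of 25 measured (median log2 ratio 0.43). Meox1, a homeobox factor, had 46 UMIs in CP+EVs members (20.8 CPM) and 0 UMIs in CP members, at least 17.1-fold higher against a floor of 3 counts over the CP members. Tcf21, a basic helix-loop-helix factor of mesenchyme within organs, stood at 78.1 CPM in CP+EVs and 38.2 CPM in CP (log2 ratio 1.03). Ebf1 stood at 398 CPM in CP+EVs and 199 CPM in CP (log2 ratio 1.0). Runx1, better known from blood cells, was lower at 63.2 CPM in CP+EVs and 125 CPM in CP (log2 ratio -0.98). The log2 ratio of Tcf21 was 0.46 with the rule applied after thinning, no longer past 1.5-fold.

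The acute-phase and antimicrobial list had the lowest median of the 42 lists, with 0 genes higher past 1.5-fold and 7 lower, of 7 measured (median log2 ratio -2.75). Saa3 (chr7:46711998-46715700), serum amyloid A3, had 13 UMIs in CP+EVs members and 10762 UMIs in CP members. It stood at 5.87 CPM (95% interval 3.13 to 10.04) in CP+EVs members and 4368 CPM (95% interval 4286 to 4451) in CP members, a log2 ratio of -9.48. After thinning to 1000 UMIs, 0.359% of CP+EVs members and 64.0% of CP members had a Saa3 UMI, against 0.258% of CP+EVs lymphocytes and 17.6% of CP lymphocytes, with median depths before thinning of 4753 UMIs (CP+EVs) and 3708.5 UMIs (CP). The CP+EVs subgroups ranged between 0 and 12.2 CPM and the CP ones between 2504 and 13551 CPM. The subgroups are parts of 1 library each and not repeats of a condition. Lcn2, which withholds iron from bacteria, stood at 5.87 CPM (95% interval 3.13 to 10.04) in CP+EVs members and 789.8 CPM (95% interval 755 to 826) in CP members, a log2 ratio of -7.02. Haptoglobin, Hp, stood at 31.6 CPM in CP+EVs and 214 CPM in CP (log2 ratio -2.75). Ceruloplasmin, Cp, stood at 562 CPM in CP+EVs and 873 CPM in CP (log2 ratio -0.64). The adventitial set also had 0 higher and 7 lower of 7 for this list (median -2.44). So did the remodelling set (median -2.23), so the lower levels were not particular to the members.

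Chemokines that attract neutrophils and monocytes had 1 gene higher past 1.5-fold and 4 lower, of 6 measured (median log2 ratio -1.3). Cxcl5 was lower at 8.13 CPM in CP+EVs and 124 CPM in CP (log2 ratio -3.89). Cxcl1 was lower at 859 CPM in CP+EVs and 1722 CPM in CP (log2 ratio -1.0), and Ccl2 at 73.2 CPM in CP+EVs and 222 CPM in CP (log2 ratio -1.6). The member higher in CP+EVs was Ccl11, given above. Cxcl2 stood at 65.03 CPM in CP+EVs and 369 CPM in CP (log2 ratio -2.5), and the CP level was 34.6% of that in the whole library. For this list the adventitial set had 1 higher and 4 lower of 5 (median -1.18). The remodelling set had 1 higher and 5 lower of 6 (median -2.30). The lymphoid chemokines and survival factors had 2 genes higher past 1.5-fold and 3 lower, of 7 measured (median log2 ratio -0.001). Cxcl14 (chr13:56288643-56296551), a chemokine of resting epithelium and stroma, stood at 516 CPM (95% interval 486 to 547) in CP+EVs members and 67.8 CPM (95% interval 57.9 to 78.9) in CP members, a log2 ratio of 2.92. The interferon-induced Cxcl9 was higher at 143 CPM in CP+EVs and 34.1 CPM in CP (log2 ratio 2.06). The B cell attractant Cxcl13 was lower at 95.3 CPM in CP+EVs and 386 CPM in CP (log2 ratio -2.02), like Cxcl12 above.

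Cytokines and colony-stimulating factors had 0 genes higher past 1.5-fold and 4 lower, of 6 measured (median log2 ratio -1.47). Il6 was lower at 326 CPM in CP+EVs and 640.5 CPM in CP (log2 ratio -0.98), and its log2 ratio was -1.68 among members of 1000 to 5000 UMIs. Il1b, a cytokine of myeloid cells, was lower at 32.97 CPM in CP+EVs and 470.0 CPM in CP (log2 ratio -3.82), and its log2 ratio was -3.14 without the led cells. Its CP level was 22.9% of that in the whole library. Neutrophil and macrophage markers, lower in CP+EVs members as well (given above), move with these lists, and their part was not tested. Without the cells led by acinar or immunoglobulin genes the list medians were -2.87 for acute phase, -1.29 for these chemokines and -1.64 for the cytokines. Cytokine receptors had 2 genes higher past 1.5-fold and 9 lower, of 18 measured (median log2 ratio -0.58). Lifr, which binds leukaemia inhibitory factor, was higher at 137 CPM in CP+EVs and 40.6 CPM in CP (log2 ratio 1.75). Ifngr1, a chain of the interferon gamma receptor, was higher at 372 CPM in CP+EVs and 142 CPM in CP (log2 ratio 1.39). The interleukin 1 receptor Il1r1 stood at 238 CPM in CP+EVs and 342 CPM in CP (log2 ratio -0.52), and without the led cells its log2 ratio was -0.67, past 1.5-fold. The shared receptor chain Il6st stood at 296 CPM in CP+EVs and 369 CPM in CP (log2 ratio -0.32). NF-kB feedback genes had 0 genes higher past 1.5-fold and 8 lower, of 14 measured (median log2 ratio -0.65), and without the led cells the median was -0.56. Ier3, an early response gene, stood at 160.3 CPM in CP+EVs and 509 CPM in CP (log2 ratio -1.66).

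Prostaglandin genes had 2 genes higher past 1.5-fold and 4 lower, of 9 measured (median log2 ratio -0.18). Hpgd, the enzyme that inactivates prostaglandins, had 51 UMIs in CP+EVs and 3 in CP, a ratio of 18.9 (interval 6.12 to 94.7). Ptgs2, the inducible cyclooxygenase, was lower at 429 CPM in CP+EVs and 683 CPM in CP (log2 ratio -0.67). The prostacyclin synthase Ptgis was lower at 291 CPM in CP+EVs and 496 CPM in CP (log2 ratio -0.77). Complement genes had 3 genes higher past 1.5-fold and 1 lower, of 11 measured (median log2 ratio 0.12). The central component C3 stood at 4765 CPM in CP+EVs and 4609 CPM in CP (log2 ratio 0.05). The C1 inhibitor Serping1 stood at 5241 CPM in CP+EVs and 4831 CPM in CP (log2 ratio 0.12), and the protease C1s1 at 1874 CPM in CP+EVs and 1396 CPM in CP (log2 ratio 0.42). All 3 lay within 1.5-fold. C7 of the membrane attack complex was higher at 182 CPM in CP+EVs and 25.98 CPM in CP (log2 ratio 2.8).

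**Figure D3:**
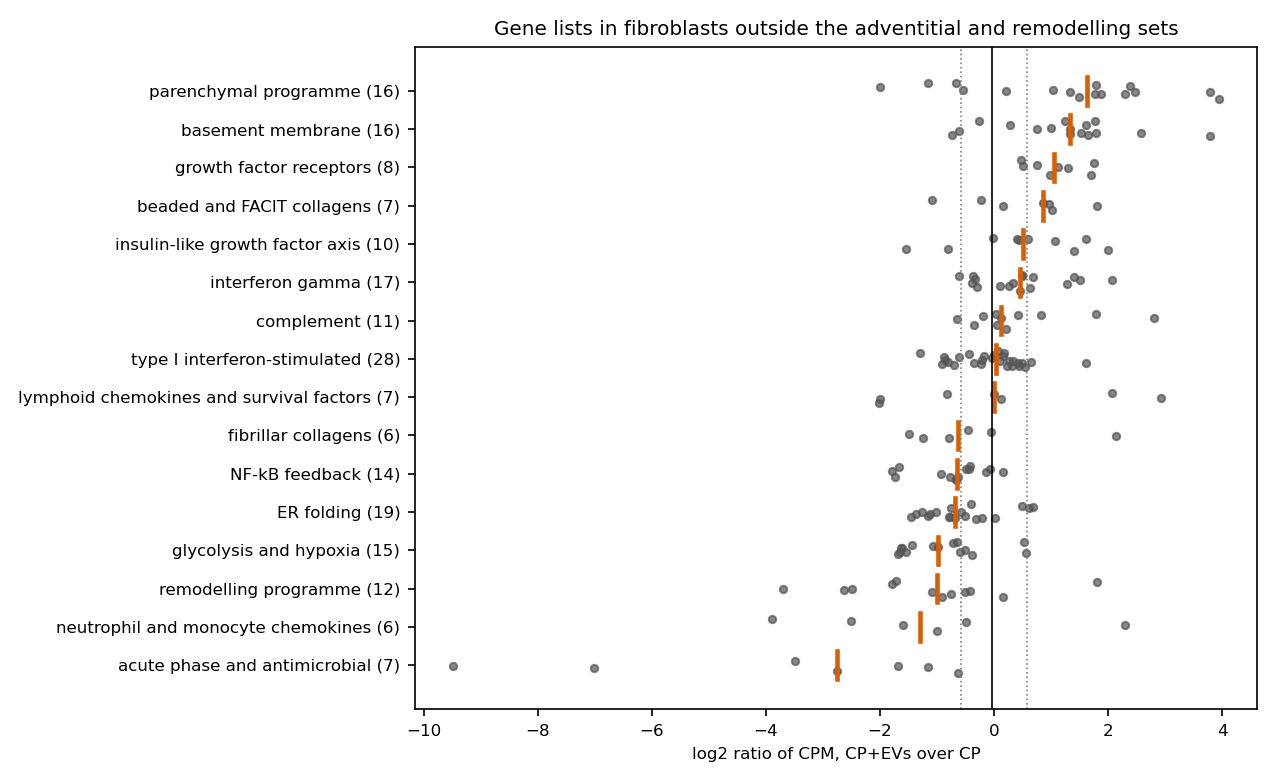
Log2 ratio of CPM, CP+EVs over CP, for each measured gene (points) of 16 lists, with the list median (orange bar), the median of all 7014 genes (black line) and the 1.5-fold limits (dotted lines), and the number of measured genes after each name. The parenchymal and basement membrane medians lay at 1.63 and 1.34, complement and type I interferon at 0.12 and 0.04, and acute phase at -2.75.

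The title names STING and interferon signalling. The interferon gamma list had 6 genes higher past 1.5-fold and 1 lower, of 17 measured (median log2 ratio 0.46). After Cxcl9, the largest ratio was that of the immunity-related GTPase Irgm1 at 168 CPM in CP+EVs and 58.9 CPM in CP (log2 ratio 1.51). Gbp4 followed at 29.4 CPM in CP+EVs and 10.96 CPM in CP (log2 ratio 1.41), and Iigp1 at 497 CPM in CP+EVs and 205 CPM in CP (log2 ratio 1.28). In adventitial fibroblasts the list had 12 higher and 0 lower of 19 (median 0.81). Type I interferon-stimulated genes had 2 genes higher past 1.5-fold and 7 lower, of 28 measured (median log2 ratio 0.04). Ifit2, an RNA-binding antiviral protein, was higher at 52.8 CPM in CP+EVs and 17.05 CPM in CP (log2 ratio 1.62). Irf7, the inducible interferon regulator, was lower at 17.6 CPM in CP+EVs and 32.1 CPM in CP (log2 ratio -0.86), a log2 ratio that was -0.09 with the rule applied after thinning. The median of this list was -0.37 among members of 1000 to 5000 UMIs. The STING list had 5 genes higher past 1.5-fold and 2 lower, of 8 measured (median log2 ratio 0.66). Sting1, the sensor adaptor itself, was lower at 26.2 CPM in CP+EVs and 60.9 CPM in CP (log2 ratio -1.21). That was 72.5% of the library level in CP+EVs and 81.7% in CP. Among the interferon-inducible DNA-binding genes, Ifi207 was higher at 690.5 CPM in CP+EVs and 231 CPM in CP (log2 ratio 1.58). Ifi205 was higher at 871 CPM in CP+EVs and 463 CPM in CP (log2 ratio 0.91), and Ifi204 at 683 CPM in CP+EVs and 420.5 CPM in CP (log2 ratio 0.70). With the rule applied after thinning the log2 ratio of Ifi205 was 0.56, and among members of 1000 to 5000 UMIs that of Ifi204 was 0.52, both within 1.5-fold. These last are close copies, and reads may be shared between them.

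MHC class I genes had 2 genes higher past 1.5-fold and 1 lower, of 13 measured (median log2 ratio 0.15). B2m, the light chain shared by class I molecules, stood at 2839 CPM in CP+EVs and 2582 CPM in CP (log2 ratio 0.14). MHC class II genes had 1 gene higher past 1.5-fold and 1 lower, of 7 measured (median log2 ratio -0.01), and the median was 0.57 without the cells led by acinar or immunoglobulin genes. The class II levels of the members were between 12.7% and 16.9% of the library level in CP+EVs and between 17.6% and 35.02% in CP. B cell markers, which fibroblasts do not make, stood at 13.2% in CP+EVs and 26.1% in CP. The part of free RNA in the class II levels was not tested.

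Genes of protein folding and of sugar breakdown were lower in CP+EVs members. The ER folding list had 2 genes higher past 1.5-fold and 10 lower, of 19 measured (median log2 ratio -0.69). The disulphide isomerase Pdia4 was lower at 148 CPM in CP+EVs and 405 CPM in CP (log2 ratio -1.45). P4hb, also a subunit of the collagen prolyl hydroxylase, was lower at 456 CPM in CP+EVs and 996 CPM in CP (log2 ratio -1.13). The chaperone Hspa5 stood at 2803 CPM in CP+EVs and 3466 CPM in CP (log2 ratio -0.31). Glycolysis and hypoxia genes had 0 genes higher past 1.5-fold and 11 lower, of 15 measured (median log2 ratio -0.98). The hypoxia factor Hif1a was lower at 65.5 CPM in CP+EVs and 205 CPM in CP (log2 ratio -1.64). Gapdh was lower at 66.4 CPM in CP+EVs and 213 CPM in CP (log2 ratio -1.68), and the pyruvate kinase Pkm at 115 CPM in CP+EVs and 241 CPM in CP (log2 ratio -1.06). In CP members they stood at 96.5% (Hif1a), 65.6% (Gapdh) and 58.4% (Pkm) of the library level. Without the led cells the medians were -0.72 for ER folding and -0.98 for glycolysis. In adventitial fibroblasts the lists had 1 higher and 13 lower of 19 (median -0.88) for ER folding and 1 higher and 9 lower of 14 (median -0.99) for glycolysis.

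Immediate-early genes had 8 genes higher past 1.5-fold and 4 lower, of 23 measured (median log2 ratio 0.34). Jun stood at 2226 CPM in CP+EVs and 828 CPM in CP (log2 ratio 1.43). Fos stood at 5676 CPM in CP+EVs and 3053 CPM in CP (log2 ratio 0.89), and Egr1 at 8764 CPM in CP+EVs and 3682 CPM in CP (log2 ratio 1.25). Nr4a2, a nuclear receptor of the same response, was lower at 311 CPM in CP+EVs and 988 CPM in CP (log2 ratio -1.67). Heat shock genes had 3 genes higher past 1.5-fold and 2 lower, of 11 measured (median log2 ratio 0.31). Hspa1b, an inducible chaperone, stood at 755 CPM in CP+EVs and 369 CPM in CP (log2 ratio 1.03). Detoxification and antioxidant genes had 5 genes higher past 1.5-fold and 2 lower, of 15 measured (median log2 ratio 0.28). The flavin monooxygenase Fmo2 was higher at 331 CPM in CP+EVs and 51.1 CPM in CP (log2 ratio 2.69), and the glutathione transferase Gstm1 at 1211 CPM in CP+EVs and 445 CPM in CP (log2 ratio 1.44). The mitochondrial superoxide dismutase Sod2 was lower at 79.5 CPM in CP+EVs and 205 CPM in CP (log2 ratio -1.36).

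Lipid and adipogenic genes had 3 genes higher past 1.5-fold and 3 lower, of 13 measured (median log2 ratio -0.22). Cebpd, a transcription factor of early fat cell formation, was higher at 1339 CPM in CP+EVs and 519.9 CPM in CP (log2 ratio 1.36). Apolipoprotein E, Apoe, was lower at 309 CPM in CP+EVs and 764 CPM in CP (log2 ratio -1.31). Retinoid and stellate genes had 1 gene higher past 1.5-fold and 2 lower, of 6 measured (median log2 ratio -0.42). Of the retinaldehyde dehydrogenases, Aldh1a1 was higher at 279 CPM in CP+EVs and 149 CPM in CP (log2 ratio 0.90), and Aldh1a2 lower at 327 CPM in CP+EVs and 527 CPM in CP (log2 ratio -0.69). Adhesion receptors had 4 genes higher past 1.5-fold and 5 lower, of 18 measured (median log2 ratio 0.21). Cd44, a hyaluronan receptor shared with leukocytes, was lower at 81.7 CPM in CP+EVs and 330.0 CPM in CP (log2 ratio -2.01). Fap, fibroblast activation protein, was higher at 82.6 CPM in CP+EVs and 42.2 CPM in CP (log2 ratio 0.97). Axon guidance genes had 3 genes higher past 1.5-fold and 2 lower, of 11 measured (median log2 ratio 0.11). Netrin, Ntn1, stood at 51.9 CPM in CP+EVs and 15.02 CPM in CP (log2 ratio 1.78). Contractile genes had 0 genes higher past 1.5-fold and 2 lower, of 8 measured (median log2 ratio -0.50). Vimentin, Vim, stood at 3127 CPM in CP+EVs and 3361 CPM in CP (log2 ratio -0.10). Cell cycle genes had 2 genes higher past 1.5-fold and 3 lower, of 10 measured (median log2 ratio -0.25), and without the led cells the median was 0.23. The topoisomerase Top2a reached 16.3% of the whole library in CP+EVs and 19.6% in CP, like the leukocyte markers. CP+EVs subgroup 2 had 9 cell cycle genes higher than the other members past 1.5-fold and 0 lower, of 13. CP subgroup 4 had 10 higher and 0 lower, of 15. Of the led cells, CP+EVs subgroup 3 had 9 higher and 2 lower, of 12. CP subgroup 1, also led, had 9 higher and 1 lower, of 12. The remaining subgroups of both libraries had 0 higher and between 5 and 8 lower. The part of free RNA in the cell cycle levels was not tested.

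By the rule for single genes, the 12 highest ratios belonged mostly to matrix, transport and signalling genes of fibroblasts. Itgbl1 (chr14:123659971-123975618), a secreted integrin-like protein, was 26.6-fold higher (interval 14.2 to 56.2) in CP+EVs, a log2 ratio of 4.67, which was 5.29 without the led cells. The membrane protein gene Tmem204 was 23.97-fold higher (interval 13.2 to 48.7). Spry1, a feedback inhibitor of growth factor signals, was 17.5-fold higher (interval 11.8 to 27.1). Nmb, which encodes neuromedin B, stood at 108 CPM in CP+EVs and 8.93 CPM in CP (log2 ratio 3.57). Vwa1, a perlecan-binding matrix protein, stood at 112 CPM in CP+EVs and 10.1 CPM in CP (log2 ratio 3.44). The lipid transporter genes had 1317 CPM in CP+EVs and 164 CPM in CP (log2 ratio 3.01) for Abca8a, and 103 CPM in CP+EVs and 10.96 CPM in CP (log2 ratio 3.2) for Abca8b. The proprotein convertase Pcsk6 stood at 354 CPM in CP+EVs and 38.2 CPM in CP (log2 ratio 3.21). Inmt, Smoc2, Ccn2 and Cxcl14, given above, complete the 12. Abca8a and Abca8b are close copies whose reads may be shared. These 12 genes lay between 104% and 874% of the library level in CP+EVs members and between 64.2% and 398% in CP members.

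Of the 12 lowest ratios, 3 belonged to genes whose level in CP members was above that of the library, Saa3, Lcn2 and Serpinb2. Serpinb2, an inhibitor of plasminogen activators, was 48.5-fold lower (interval 20.5 to 151) in CP+EVs, with 5 UMIs in CP+EVs and 270 in CP. Without the led cells it had 0 UMIs in CP+EVs and 203 in CP. It was among the leading genes of CP subgroup 4, with 655 CPM there. The mesothelial markers of that subgroup summed to 382 CPM, above the 169 CPM of the whole CP library. Leaving out the led cells did not remove that subgroup. The other 9 are known from neutrophils, monocytes and macrophages: Chil3, Slfn4, S100a9, C5ar1, Retnlg, Clec4e, Il1r2, Itgam and Nlrp3. Their levels in CP members were 25.4% to 36.5% of those in the whole library, beside 24.8% for the neutrophil markers and 32.5% for the macrophage markers as sums. S100a9 stood at 7.68 CPM in CP+EVs and 579 CPM in CP (log2 ratio -6.2) in members and at 8.88 CPM in CP+EVs and 854 CPM in CP lymphocytes, higher than in the members of the same library. The rule limits neutrophil genes in members, and lymphocytes had no such limit, so this order is partly set by the selection. Chil3 had 1 UMI and Slfn4 3 UMIs in CP+EVs members, for ratios of CP over CP+EVs of 297 (interval 52.9 to 11749.7) and 107 (36.3 to 521). Without the led cells Chil3 had 1 UMI in CP+EVs and 117 in CP, and Slfn4 had 3 in CP+EVs and 147 in CP.

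**Figure D4:**
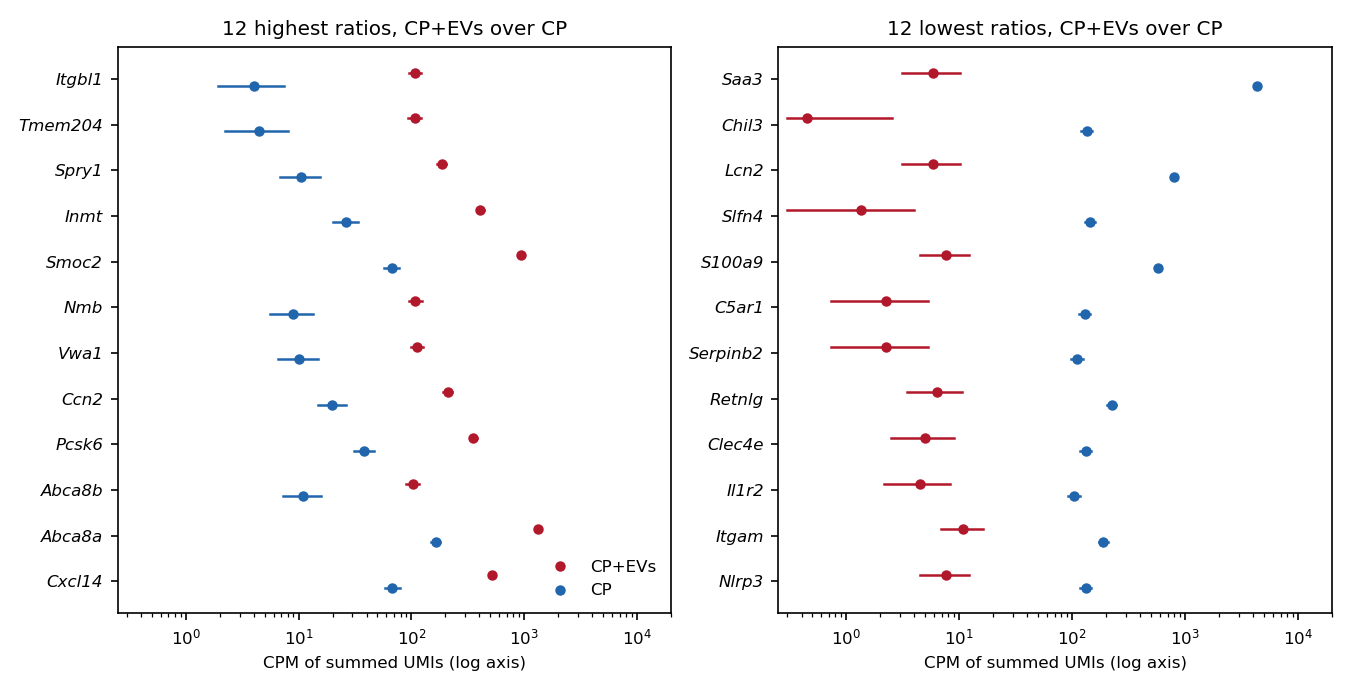
CPM of the summed UMIs on a log axis, with 95% counting intervals, for the 12 genes with the highest (left) and the 12 with the lowest (right) ratio of CP+EVs (red) over CP (blue) members. On the left CP+EVs lay above CP for every gene, by 7.61-fold to 26.6-fold, and on the right Saa3 is the gene with the widest gap, 5.87 CPM in CP+EVs and 4368 CPM in CP.

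Within each library the members were set beside the adventitial cells, which the rule separates on the same counts, so these values describe the split. Of 6060 genes measured, 104 (1.72%) were 1.5-fold or more higher in the members of both libraries, and 95 (1.57%) that far lower. Cxcl14 was higher in the members by log2 2.8 in CP+EVs and 3.94 in CP, the myosin kinase Mylk by 2.38 in CP+EVs and 1.25 in CP, and Col6a5, a collagen VI chain, by 1.77 in CP+EVs and 1.8 in CP. Genes known from macrophages, such as Ctss and Ctsc, were among the 8 highest too. Ackr3, a scavenger receptor of Cxcl12, was lower in the members, with log2 ratios of -1.98 in CP+EVs and -1.19 in CP. So was Anxa3, with -2.03 in CP+EVs and -0.92 in CP.

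Beside the remodelling cells, 131 of 6039 genes measured (2.17%) were 1.5-fold or more higher in the members of both libraries, and 57 (0.944%) that far lower. The CP+EVs remodelling set held 31 cells, so its levels rest on few cells. Cxcl13 was higher in the members by log2 3.01 in CP+EVs and 2.15 in CP. Aspn, asporin, an inhibitor of TGF-beta in cartilage, was lower in the members, with log2 ratios of -1.74 in CP+EVs and -1.82 in CP. Timp1 was lower too, with log2 ratios of -0.99 in CP+EVs and -0.69 in CP.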

How the data were processed

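Single cells of mouse pancreas were captured on BD Rhapsody, per the labels' protocols. What the authors deposited is a matrix of whole-number UMI counts for each library, with no normalization visible in the values. Per the submitters' processing notes CASAVA 1.8, UMI-tools, Seurat and the build mm10 were used, in roles not stated. The lowest barcode held 501 UMIs. The aligner, the annotation and the cell calling were not given in the sources used here. Depth was 38532775 UMIs over 8845 barcodes in CP+EVs (median 2884) and 51652425 over 13507 in CP (median 1417). Gene positions come from GENCODE vM21 on the same build.

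Counts were summed over members, scaled to CPM and compared as log2 ratios with 0.5 counts added. Sums have exact Poisson intervals, shares exact Clopper-Pearson intervals and ratios intervals conditional on the summed count; all cover counting error only. No test was made, because cells are not replicates. Genes at least 1.5-fold apart count as higher or lower. Lymphocytes held at least 3 UMIs of Cd3d, Cd3e, Cd3g, Cd79a and Cd79b and under 1% of the 4 fibroblast genes. Subgroups are Leiden clusters at resolution 0.5 (scanpy 1.11.5, 2000 variable genes, 20 components, 15 neighbours, each library alone). Doublets were not called, and mixed cells may remain. Free RNA was read as the level in members relative to the whole library.

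The 12 highest and 12 lowest ratios were taken among genes of 100 CPM in either library and 100 UMIs over both, leaving out acinar, Reg, mitochondrial, haemoglobin, immunoglobulin, Gm, Rik and selection genes and those at or under 25% of the library level. From each of 42 lists up to 5 measured genes with large ratios and 3 with high CPM qualified, beside the 8 leading genes of sets and subgroups. Those named outside this rule were chosen after their values were seen. The members, lists and rules were chosen with earlier results of these data known. The ratio and interval step was tested on simulated counts. Alternatives covered scaling, filters, depth, the selection limits and the clustering resolution. Some items are not reported here.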

Additional observations from a re-analysis of the deposited data

Results flagged for a closer look

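For 4 genes the members and a neighbouring fibroblast set lay on opposite sides of level in CP+EVs against CP. These differences were not tested, since each set has 1 library a group. Cd55, a shield against complement, had a log2 ratio of -0.65 in the members and 0.69 in the adventitial set. Adh1, an alcohol dehydrogenase, had 1.14 in the members and -0.77 in the adventitial set. Jchain, a plasma cell gene, had -0.80 in the members and 1.01 in the adventitial set, and its ratio in the members turned to 0.64 without the cells led by acinar or immunoglobulin genes. Cxcl14 had 2.92 in the members and -1.21 in the remodelling set, which held 31 cells in CP+EVs.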

How the results depend on the processing

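The share of kept barcodes depended on the selection. In CP+EVs it was 6.77% with at least 2000 UMIs, 6.34% with the 4 fibroblast genes at 2% of UMIs, 20.02% with the rule applied after thinning, 6.47% without the subgroups led by acinar or immunoglobulin genes and 6.54% with at least 1 Pdgfra UMI. In CP the same settings gave 5.58% with at least 2000 UMIs, 8.32% at 2%, 18.9% after thinning, 5.97% without the led subgroups and 5.79% with a Pdgfra UMI. Of these only the 2% limit kept CP+EVs below CP. Genes at least 1.5-fold higher numbered 326 and those lower 424 with a filter of 100 CPM and 100 UMIs, and 3764 and 4726 with no filter. Of 504 list medians under the alternatives, 326 moved by under 0.1 (log2), 177 moved further and 1 past 1.5-fold turned its sign, that of the metalloproteinase inhibitors, at -1.10 with the stricter filter. That median rested on 2 genes. Of 4039 log2 ratios of named genes, 3296 stayed within the interval, 730 moved further and 13 past 1.5-fold turned their sign. With the rule applied after thinning Cd55 stood at 0.18, Gas7 at 0.10, Top2a at -1.35, Thbs4 at -1.22 and Tgfb3 at -0.12. Jchain stood at 0.16 as a mean of per-cell CPM, at 0.33 with the 2% limit, at 0.29 among members of 1000 to 5000 UMIs and at 0.64 without the led subgroups. Top2a stood at -0.28 as a mean of per-cell CPM and at -0.58 among members of 1000 to 5000 UMIs, and Ighg2c at 0.55 with the 2% limit and at 0.52 without the led subgroups. The causes of these changes were not tested. No paired analysis was possible because each group has 1 library and no test was made. Depth differs between the libraries and between the sets, so a limit in UMIs keeps other cells in each, and low genes were not detectable in most cells.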
